A study of Homo sapiens with 6 samples.

Results

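The genes described here are 7 genes of the RAS, RAF, MEK and ERK cascade, chosen by name from a table of 54261 genes: HRAS, NRAS, ARAF, BRAF, MAP2K1, MAP2K2 and MAPK3. All 7 have a row in the table, 5 had enough reads to be tested, and HRAS and ARAF are listed at 0 in every library. The libraries come from A549, an established human lung adenocarcinoma cell line grown with fetal bovine serum. In 3 of them (si-SNHG17) the long noncoding RNA SNHG17 was knocked down, and the other 3 (si-NC) are labelled as control. The labels name no further agent, dose or time, so both groups are taken as one line that differs in the knockdown. The comparison asks how the RNA of this cascade stood once SNHG17 was lowered.

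RAS proteins are small GTPases that switch on at the membrane when receptors recruit exchange factors. RAS bound to GTP recruits the RAF kinases, RAF phosphorylates the MEK kinases (encoded by MAP2K1 and MAP2K2), and MEK phosphorylates the ERK kinases, one of which is encoded by MAPK3. The signal itself is carried by GTP loading and phosphorylation, which RNA counts do not measure. The cascade is among the pathways most often activated by mutation in lung adenocarcinoma.

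Of the 5 genes tested, MAP2K2 and BRAF were higher in si-SNHG17, NRAS was lower, and MAP2K1 and MAPK3 did not pass the threshold (adjusted p under 0.05 by edgeR's quasi-likelihood test, over all 15614 genes tested). That is 2 higher and 1 lower, where 19.6% of all genes tested were higher and 19.6% lower, 39.1% in all. The groups did not overlap for 3 of the 5, where 49.4% of all genes tested had groups that did not overlap. With so large a share of the transcriptome called, the count of 3 of 5 is not a result about this cascade. The exact two-sided permutation test of log2 CPM over libraries gave p = 0.1 for NRAS, BRAF and MAP2K2, the smallest that 3 against 3 allows, 0.8 for MAP2K1 and 0.6 for MAPK3.

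**Figure D1:**
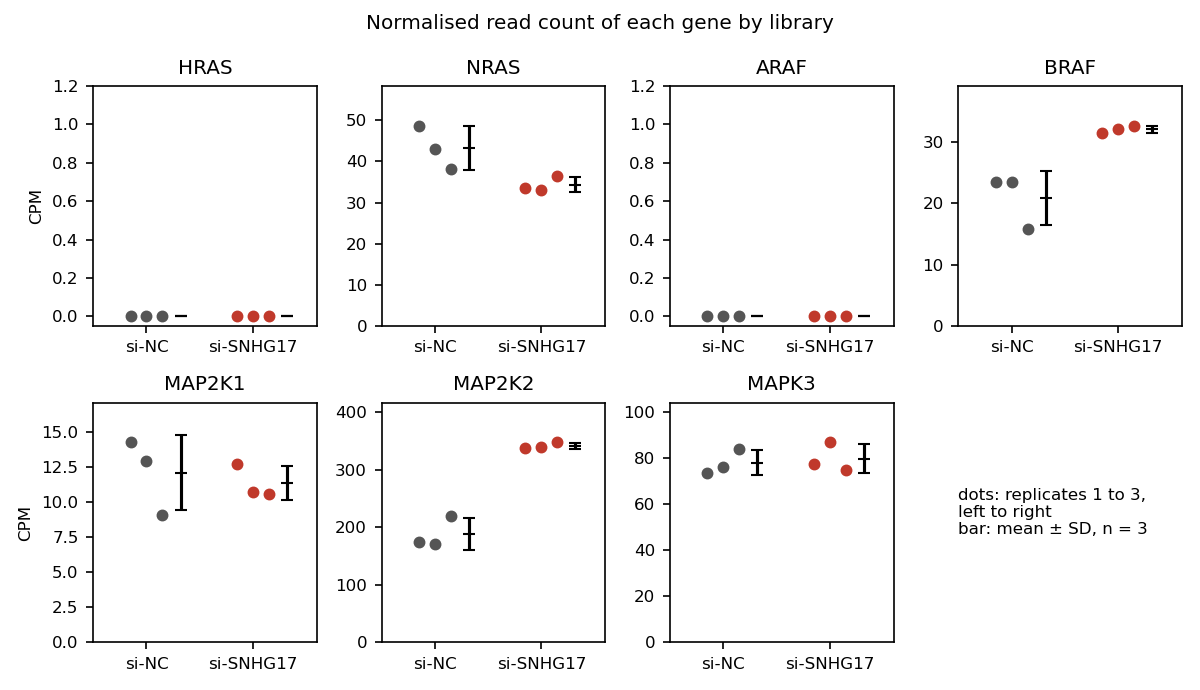
Normalised read count (CPM, counts scaled by library size and TMM factor, y axis) of the 7 genes in each of the 6 libraries, with si-NC on the left and si-SNHG17 on the right of each panel; points are libraries and the bar is the mean ± SD over 3. HRAS and ARAF lie at 0 throughout, the MAP2K2 points of the groups are far apart (171.1 to 220.3 against 338.1 to 347.0 CPM), and those of MAP2K1 and MAPK3 intermingle.

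The libraries held 8643076 to 12477214 counts. When 0 is seen, the 95% upper limit on the expected count is about 3, for counting error only. In these libraries 3 counts came to 0.240 to 0.342 CPM. SNHG17, the targeted RNA, had 7.82, 8.39 and 11.3 CPM in si-SNHG17 against 38.7, 36.2 and 51.4 CPM in si-NC (log2 fold change -2.21, standard error 0.167, adjusted p = 2.84e-07 by edgeR). The third si-NC library stood apart from its group: its chi-square per degree of freedom was 8.85 to the first and 8.40 to the second, which gave 2.25 with each other, so values without it are given for each of the 5 tested genes of the cascade. All 8 markers chosen for this epithelial line were counted, from EPCAM at 0.479 to 1.71 CPM to ALDH1A1 at 2002 to 6066 CPM. Their summed level was 12910 to 13560 CPM in si-SNHG17 and 20890 to 22700 CPM in si-NC. Of the 8, 2 were higher and 5 lower (87.5% called, against 39.1% of all genes tested). KRT7 and KRT19 were higher (adjusted p = 0.0371 and 0.00232 by edgeR), while CDH1, KRT8, KRT18, AKR1B10 and ALDH1A1 were lower. The immune markers PTPRC and CD3E were at 0, and the immune markers summed to 29.1 to 32.4 CPM in si-SNHG17 and 38.1 to 52.7 CPM in si-NC. Most of this was CD14, which was lower in si-SNHG17 (19.6 ± 1.55 against 36.1 ± 6.54 CPM, adjusted p = 0.000169 by edgeR), while ITGAM was higher (9.40 ± 0.440 against 6.64 ± 0.515 CPM, adjusted p = 0.0256). COL1A2 of the 6 stromal and endothelial markers was at 0. The 6 summed to 36.4 to 47.4 CPM in si-SNHG17 and 40.7 to 54.1 CPM in si-NC. Most of this sum was COL1A1 (25.3 ± 3.7 against 24.3 ± 3.7 CPM, adjusted p = 0.752 by edgeR) and THY1. THY1 was lower in si-SNHG17 (15.5 ± 1.9 against 21.9 ± 3.3 CPM, adjusted p = 0.0149 by edgeR). The part of these shifts in the results was not tested. In RNA from a whole culture, fewer cells with a transcript and less of it per cell cannot be told apart.

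HRAS encodes one of the classical RAS GTPases and lies on the minus strand of chromosome 11 from 532242 to 535576 (RefSeq, GRCh38.p14). It had 0 counts in each of the 6 libraries. It sits in a run of 12 neighbouring protein-coding genes, from PTDSS2 to DEAF1 (448268 to 707083), of which 10 had no read in any library, while the run as a whole held 2 reads, 1 each for IRF7 and CDHR5. The run includes RNH1, the ribonuclease inhibitor, and PTDSS2, a phosphatidylserine synthase, both widely expressed in human cells. The gene just before the run, ANO9, had 237 reads over the 6 libraries, and the gene just after it, TMEM80, had 604. Farther out, TALDO1 had 32454. HRAS is therefore described only as listed at 0, together with most of its neighbours.

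ARAF encodes a RAF kinase and lies on the plus strand of the X chromosome from 47561205 to 47571908. It too had 0 counts in each of the 6 libraries, but here the neighbours were counted: ZNF41 on one side had 438 reads over the 6 libraries, SYN1, which overlaps ARAF, had 15, and TIMP1, beyond it, had 13299. Among the genes farther from ARAF, CDK16, a widely expressed kinase, was also at 0 in every library. Over the whole table, 4510 of 20643 rows typed as mRNA (21.8%) had no read in any library. Neither HRAS nor ARAF was tested, no fold change is given for them, and the cause of the zeros was not tested.

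**Figure D2:**
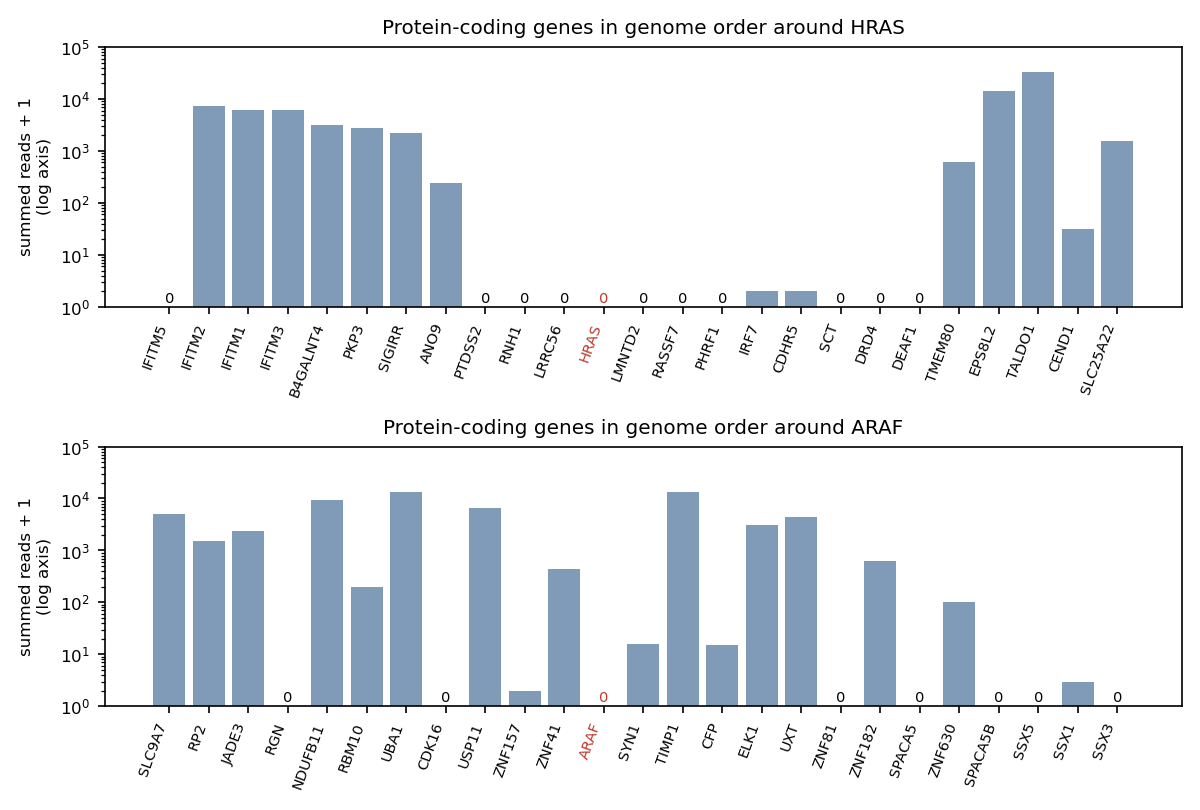
Reads summed over the 6 libraries, plus 1, on a log axis, for protein-coding genes with a row in the table, in genome order around HRAS (upper panel) and ARAF (lower panel); the name in red is the gene of interest and a 0 marks a gene without a read. HRAS lies inside an unbroken run of 12 genes with at most 1 read each, and ARAF stands between counted genes.

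NRAS, the RAS gene of this set that was counted, was the member that fell. This classical RAS GTPase is encoded on the minus strand of chromosome 1 from 114704469 to 114716771. It had 33.6, 33.1 and 36.4 CPM in si-SNHG17 and 48.6, 43.0 and 38.1 CPM in si-NC. Every si-SNHG17 library was below every si-NC library, but the third si-NC library came close to the highest si-SNHG17 library. Mean levels were 34.3 ± 1.77 CPM and 43.2 ± 5.25 CPM (SD, n = 3), a level 1.26-fold higher in si-NC. The log2 fold change was -0.33 (standard error 0.110, 95% interval -0.57 to -0.0951, adjusted p = 0.0282 by edgeR). This call passed in 9 of 15 alternative fits, where those of BRAF and MAP2K2 passed in all 15. Leaving out the first or second si-SNHG17 library ended it (adjusted p = 0.0904 and 0.0915 by edgeR). So did leaving out the first or second si-NC library (0.144 and 0.0667) or using library totals in place of scaling (0.0526). Without the third si-NC library it was -0.42 (adjusted p = 0.00371 by edgeR).

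BRAF was the counted RAF gene of this set, and it rose. It encodes the RAF kinase with the highest basal activity and spans 140713328 to 140924929 on the minus strand of chromosome 7. It had 31.5, 32.04 and 32.6 CPM in si-SNHG17, a narrow range, and 23.5, 23.5 and 15.8 CPM in si-NC. All si-SNHG17 libraries lay above all si-NC libraries, and the lowest si-NC value was that of the third library. On average, si-SNHG17 had 32.04 ± 0.550 CPM and si-NC 20.9 ± 4.41 CPM (SD, n = 3), or 1.54-fold. Its log2 fold change was 0.62 (standard error 0.141, 95% interval 0.32 to 0.92, adjusted p = 0.0033 by edgeR). It was 0.45 without the third si-NC library (adjusted p = 0.00322 by edgeR). BRAFP1, a processed copy of BRAF, had only 3 to 10 counts per library against 169 to 401 for BRAF.

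Of the MEK genes, MAP2K2 rose and MAP2K1 did not pass. MAP2K2 (MEK2; minus strand of chromosome 19, 4090321 to 4124122) had the highest level and the largest fold change of the 5 tested. It had 338.1, 338.7 and 347.0 CPM in si-SNHG17 against 173.6, 171.1 and 220.3 CPM in si-NC. The lowest si-SNHG17 library was far above the highest si-NC library, again that of the third library. The group means of 341.3 ± 4.97 CPM and 188.3 ± 27.7 CPM (SD, n = 3) differed 1.81-fold, with a log2 fold change of 0.86 (standard error 0.0948, 95% interval 0.65 to 1.06, adjusted p = 9.08e-06 by edgeR). Without the third si-NC library the log2 fold change was 0.98 (adjusted p = 1.27e-09 by edgeR).

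MAP2K1 (MEK1; plus strand of chromosome 15, 66386912 to 66491544) was low and did not pass the threshold. It had 12.7, 10.7 and 10.6 CPM in si-SNHG17 and 14.2, 12.9 and 9.08 CPM in si-NC, so the groups overlapped. The log2 fold change was -0.0856 with a 95% interval of -0.47 to 0.30 (adjusted p = 0.736 by edgeR), an interval that leaves room for a modest change in either direction but stays below the change of MAP2K2. Without the third si-NC library it was -0.26 (adjusted p = 0.207 by edgeR). The count of MAP2K1 is uncertain, since a processed copy, MAP2K1P1, held 36 to 53 counts per library against 93 to 134 for MAP2K1, and the end of the gene overlaps SNAPC5 on the other strand (833 reads in all). The sources used do not say how shared reads and strand were treated.

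Per kilobase of exon, MAP2K2 RNA exceeded MAP2K1 RNA in every library, by 53.6, 63.9 and 66.1 times in si-SNHG17 and by 24.6, 26.7 and 48.9 times in si-NC. This ratio is taken within a library and does not depend on scaling. Its size, though not the difference between groups, depends on the lengths used, and it shares the uncertain count of MAP2K1. By median transcript length, MAP2K2 and MAP2K1 had means of 117.5 and 4.99 CPM per kilobase in si-NC. In si-SNHG17 these means were 212.9 and 4.69. The ratios of the groups did not overlap, and the third si-NC library lay nearer to the si-SNHG17 libraries than to its own group. On the log2 scale the ratio was 5.93 ± 0.162 against 4.99 ± 0.541 (SD, n = 3), a difference of 0.94. The exact two-sided permutation test over libraries gave p = 0.1, the smallest possible here, so the change of MAP2K2 was not shown to differ from that of MAP2K1 by this test. Without the third si-NC library the difference was 1.25. The same ratio for HRAS to NRAS and for ARAF to BRAF could not be formed, because HRAS and ARAF are at 0.

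The stretches before the start sites of NRAS, MAP2K1 and MAP2K2 are printed to show the sequence beside the RAS gene that fell and beside each MEK gene. Each holds the bases of the 250 before the start site that lie in no other annotated gene (RefSeq, GRCh38.p14), 5′ to 3′ on the gene's strand. For MAP2K1 this leaves out 56 bases shared with TIPIN. Capitals mark GGGCGG on either strand, the core of the GC box bound by SP1-type factors.
NRAS, chr1:114716772-114716915, minus strand: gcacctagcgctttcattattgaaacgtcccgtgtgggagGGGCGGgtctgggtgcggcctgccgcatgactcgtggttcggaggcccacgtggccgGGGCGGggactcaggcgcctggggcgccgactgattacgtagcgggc
MAP2K1, chr15:66386718-66386911, plus strand: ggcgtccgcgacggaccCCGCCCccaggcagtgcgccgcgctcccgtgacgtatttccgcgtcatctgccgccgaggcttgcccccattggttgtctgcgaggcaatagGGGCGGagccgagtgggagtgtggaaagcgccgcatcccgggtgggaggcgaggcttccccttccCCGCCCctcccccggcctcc
MAP2K2, chr19:4124123-4124372, minus strand: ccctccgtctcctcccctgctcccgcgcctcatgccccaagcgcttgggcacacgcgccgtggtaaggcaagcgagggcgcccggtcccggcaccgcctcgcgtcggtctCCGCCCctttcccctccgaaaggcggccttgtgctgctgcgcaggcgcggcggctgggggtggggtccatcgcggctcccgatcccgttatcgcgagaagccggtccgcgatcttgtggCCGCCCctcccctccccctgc

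MAP2K1 has 3 such matches, MAP2K2 has 2 and NRAS has 2, while 42.6% of all 35116 RefSeq windows of 250 bases hold at least 1. Over the whole 250 bases, G and C made up 71.2% for MAP2K1 and 74.0% for MAP2K2, against 54.4% for NRAS and a median of 58.0% over all windows. The E-box CACGTG occurs once before NRAS and in neither MEK window (6.34% of all windows hold it). The ETS-type sequence CCGGAAG (8.52% of windows) and the AP-1-type sequence TGANTCA (6.57%) occur in none of these 3 windows. Both strands were searched, and no match overlapped one of another motif. These matches are a description of letters and no evidence of binding. For BRAF the RefSeq start in use lies 661 bases inside the gene's span, so its window is not shown.

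MAPK3 (ERK1; minus strand of chromosome 16, 30114105 to 30123220), the ERK kinase gene of this set, did not pass. It had 77.7, 86.9 and 75.0 CPM in si-SNHG17 and 73.8, 76.2 and 84.3 CPM in si-NC, and the groups intermingled. The means were 79.9 ± 6.26 and 78.1 ± 5.50 CPM (SD, n = 3). The log2 fold change was 0.0332 with a 95% interval of -0.16 to 0.23 (adjusted p = 0.805 by edgeR), so a change as large as that of MAP2K2 or BRAF lies outside the interval. It was 0.0914 without the third si-NC library (adjusted p = 0.425 by edgeR).

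**Figure D3:**
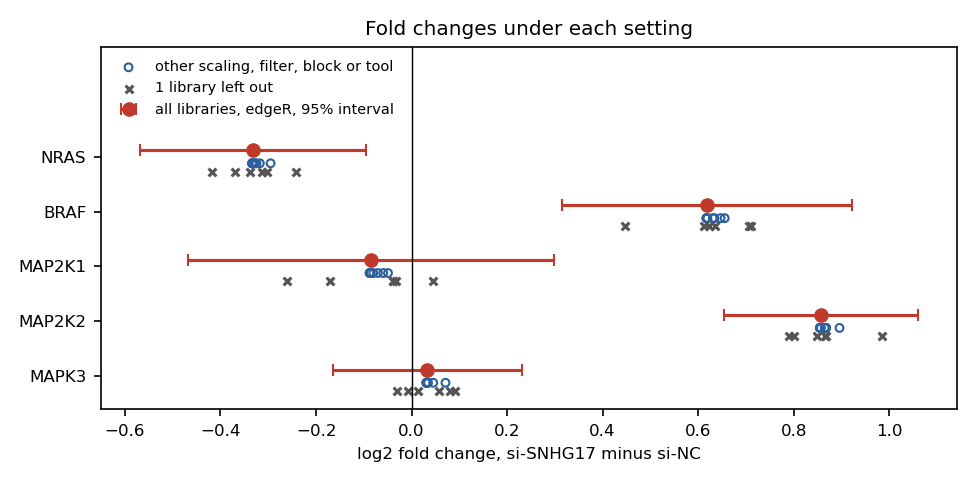
Log2 fold change of si-SNHG17 minus si-NC (x axis) for the 5 tested genes: the red point is the fit to all libraries with its 95% interval, open circles are other scalings, filters, the replicate block and other tools, and crosses leave out 1 library each. MAP2K2 and BRAF stay to the right of 0 and NRAS to the left, and MAP2K1 and MAPK3 lie on both sides.

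Levels of different genes can be set side by side only per length. By CPM per kilobase of annotated coding-transcript exons (RPKM), the order in si-NC was MAP2K2 (108.6 ± 16.0), MAPK3 (26.96 ± 1.90), NRAS (9.72 ± 1.18), MAP2K1 (3.45 ± 0.764) and BRAF (1.45 ± 0.306; SD, n = 3). The order in si-SNHG17 was the same, with MAP2K2 at 196.8 ± 2.84, MAPK3 at 27.6 ± 2.17, NRAS at 7.72 ± 0.397, MAP2K1 at 3.24 ± 0.342 and BRAF at 2.22 ± 0.0380 RPKM. No neighbours in either order overlapped between libraries. The place of the lower 3 depends on the length used: BRAF has 14405 bases of exon in all but a median coding transcript of 2561 bases, and by the median length BRAF came to 8.17 RPKM in si-NC and 12.51 in si-SNHG17, above MAP2K1 (4.99 and 4.69) in both and above NRAS (9.72 and 7.72) in si-SNHG17. MAP2K2 and MAPK3 led by either length.

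The genes most like each member were sought among 9197 other genes typed as mRNA with a mean of at least 5 CPM, by Pearson's r of log2 CPM over the 6 libraries. The libraries form separate groups that share their depth and scaling, so these values are a description. Symbols ending in P and a number were left out as possible pseudogenes, which also removes some coding genes such as TIMP1. NRAS was closest to ATMIN (r = 0.9968) and MAP2K5 (0.9955), BRAF to LIFR (0.9969) and TMOD2 (0.9964), and MAP2K2 to PHC2 (0.9986) and NSFL1C (0.9985). MAP2K1 was closest to ARID2 (0.9883) and CCDC117 (0.9879), and MAPK3 to RPS21 (0.9818) and GAMT (0.9795).

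Upstream of RAS, 6 of 18 tested adaptors, exchange factors and GTPase-activating proteins were higher and none was lower (33.3% called, against 39.1% of all genes). Their median log2 fold change was 0.10, where the median over all genes tested was 0.0077. FRS2, a docking protein of fibroblast growth factor receptors, rose from 15.6 ± 4.15 to 26.7 ± 1.03 CPM, a log2 fold change of 0.78 (edgeR, adjusted p = 0.00192). The exchange factor RASGRP2 (0.87, adjusted p = 0.00284) and the docking protein GAB2 (0.41, adjusted p = 0.0112) rose as well by edgeR. So did the exchange factor RASGRP3 (0.96, adjusted p = 0.0239 by edgeR). The GTPase-activating proteins RASA2 (0.52, adjusted p = 0.0247) and RASA3 (0.25, adjusted p = 0.0331) were also among the 6, by edgeR. SHC1, the adaptor with the highest mean CPM of the list, had 528.1 ± 30.4 CPM against 506.6 ± 27.4 CPM, a log2 fold change of 0.0601 (edgeR, adjusted p = 0.567). Leaving out the first si-SNHG17 library reduced the 6 to 2, leaving out the third gave 3, and 2 genes were lower without the third si-NC library. The call of GAB2 ended when the first si-SNHG17 or the second si-NC library was left out (adjusted p = 0.0555 and 0.0637 by edgeR).

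RAS proteins reach the membrane after a lipid is attached and the protein is processed further. The genes listed for lipid processing and trafficking moved in both directions. Of 13 tested, 4 were higher and 4 lower (61.5% called, against 39.1% of all genes tested, with a median of 0.0060). FNTA, a subunit of the farnesyltransferase that acts on RAS proteins, rose from 19.5 ± 1.78 to 37.1 ± 1.53 CPM, a log2 fold change of 0.93 (edgeR, adjusted p = 1.76e-05). FNTB, the other subunit of that enzyme, fell from 16.9 ± 1.58 to 11.3 ± 1.63 CPM, a log2 fold change of -0.57 (edgeR, adjusted p = 0.00834). ICMT, which methylates the prenylated end of RAS, fell from 136.3 ± 4.67 to 82.4 ± 6.03 CPM, a log2 fold change of -0.73 (edgeR, adjusted p = 1.27e-05). ZDHHC9, a palmitoyltransferase of HRAS and NRAS, rose from 110.9 ± 4.04 to 157.0 ± 6.26 CPM, a log2 fold change of 0.50 (edgeR, adjusted p = 0.000161). Only 2 were higher when the second or the third si-SNHG17 library, or the first or the second si-NC library, was left out.

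Among scaffolds, chaperones and regulators of RAF, MEK and ERK, 4 of 27 tested were higher and 6 lower. That is 37.0% called, against 39.1% of all genes tested, with a median log2 fold change of -0.0442. Members of one family went opposite ways. Of the 14-3-3 proteins, which bind phosphorylated RAF, YWHAB fell from 292.8 ± 13.2 to 120.3 ± 6.995 CPM, a log2 fold change of -1.28 (edgeR, adjusted p = 3.89e-08). SFN, a 14-3-3 gene also known as a p53 target, rose from 89.2 ± 8.99 to 191.3 ± 12.3 CPM, a log2 fold change of 1.10 (edgeR, adjusted p = 6.18e-07). YWHAQ was lower by less (-0.27, adjusted p = 0.00774 by edgeR). The 14-3-3 genes YWHAE, YWHAG, YWHAH and YWHAZ did not pass the threshold. Some RAF kinases depend on HSP90 chaperones for folding. Of these chaperones, HSP90AA1 fell from 1041 ± 21.0 to 610.0 ± 61.6 CPM, a log2 fold change of -0.77 (edgeR, adjusted p = 5.97e-06). HSP90AB1, with the highest mean CPM of the list, rose from 1659 ± 36.4 to 2010 ± 43.5 CPM, a log2 fold change of 0.28 (edgeR, adjusted p = 0.00505).

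Of the related small GTPases, 5 of 11 tested were higher and 3 lower (72.7% called, against 39.1% of all genes, median 0.11). RIT1, a close relative of the classical RAS proteins, rose from 32.2 ± 0.947 to 62.8 ± 2.96 CPM, a log2 fold change of 0.96 (edgeR, adjusted p = 3.00e-06). RAP2B also rose (0.69, adjusted p = 8.37e-05 by edgeR), and DIRAS1 fell from 11.1 ± 0.261 to 4.68 ± 0.798 CPM (-1.26, adjusted p = 7.86e-05 by edgeR). RRAS, with the highest mean CPM of the list, had 273.0 ± 37.6 against 252.5 ± 21.7 CPM, a log2 fold change of 0.11 (edgeR, adjusted p = 0.405). Just 1 was lower when the first si-SNHG17 or the second si-NC library was left out. RAP1A, like HRAS and ARAF, is listed at 0 in all 6 libraries.

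Downstream of ERK, 3 of 10 tested effector kinases and ternary complex factors were higher and 2 lower (50.0% called, median -0.17). Over all genes tested, 39.1% were called. ELK3, a ternary complex factor, rose from 44.5 ± 4.85 to 98.5 ± 5.13 CPM, by 1.15 on the log2 scale (adjusted p = 9.02e-07 by edgeR). The kinases RPS6KA3 (RSK2; -0.52, adjusted p = 0.000631) and MKNK1 (-0.55, adjusted p = 0.000656) fell, by edgeR. Of 17 tested genes of ERK output and feedback, 7 were higher and 1 lower (47.1% called, median 0.19). Among all genes tested, 19.6% were higher and 19.6% lower. The ERK phosphatases DUSP5 (log2 fold change 1.54) and DUSP4 (0.68) and the AP-1 factor FOSL1 (1.08) had the smallest p by edgeR. The 1 that fell, ETV5, a transcription factor of the ETS family, had a log2 fold change of -0.95 (adjusted p = 9.54e-06 by edgeR). Of the 17 genes, 2 were lower without the third si-NC library.

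The parallel MAP kinase cascades gave 1 higher and 3 lower of 13 tested (30.8% called, against 39.1% of all genes, median 0.0620). MAPK6, an atypical kinase related to ERK, rose from 81.2 ± 9.32 to 175.8 ± 12.1 CPM, a log2 fold change of 1.11 (edgeR, adjusted p = 8.17e-07). MAP2K3 and MAP2K6, kinases that activate p38, both fell. MAP2K3 went from 102.4 ± 10.1 to 53.6 ± 1.89 CPM, a log2 fold change of -0.93 (edgeR, adjusted p = 3.61e-06). MAP2K6 went from 3.60 ± 0.337 to 1.18 ± 0.123 CPM, a log2 fold change of -1.61 (edgeR, adjusted p = 0.000541). Without the third si-NC library, 2 genes of this list were higher.

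**Figure D4:**
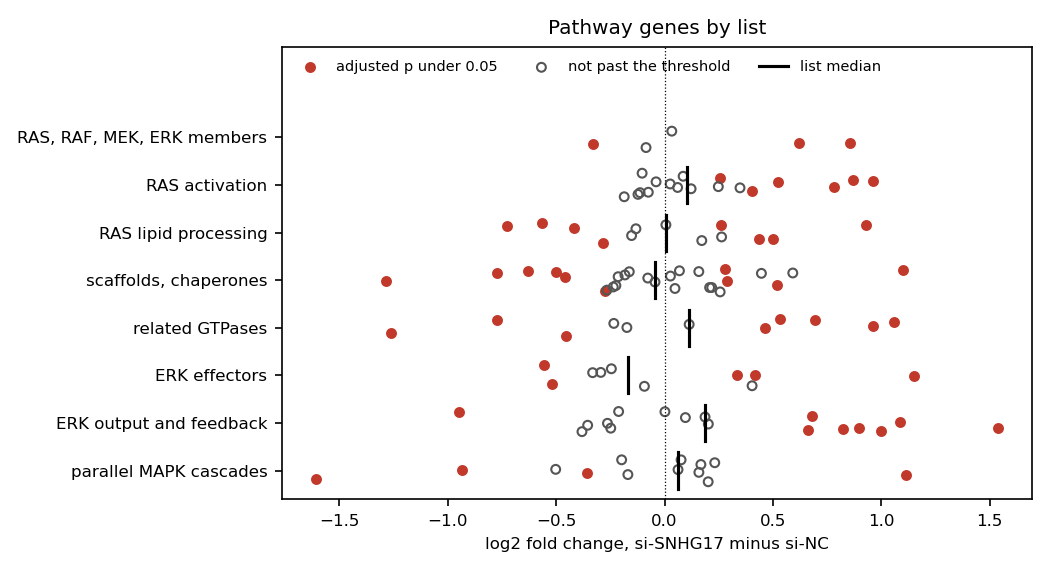
Log2 fold change of si-SNHG17 minus si-NC (x axis) for each tested gene of the cascade and of 7 lists of pathway genes; filled points passed an adjusted p of 0.05, open points did not, and black bars are list medians. The lists spread to both sides of 0, and their medians run from -0.17 to 0.19.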

How the data were processed

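RNA of 6 A549 libraries was sequenced from single ends on Proton sequencers, per the labels' protocols. The values the authors deposited are raw counts of reads for each gene, in whole numbers and not normalized. GRCh38 is the build in the submitters' processing notes; aligner, counter, annotation and use of strand are not given in the sources used. Column names equal the titles, which set the groups. Since no label says that the libraries are separate cultures, the p-values cover the spread among libraries, which may be technical.

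Counts were tested with edgeR 4.0.16 in R 4.3.3 (filterByExpr, TMM scaling, glmQLFit and glmQLFTest, group as the only term), with Benjamini-Hochberg adjustment over all 15614 genes tested and a threshold of 0.05. CPM values use scaled library sizes. Standard errors were derived from the fold change and the F value. Exon lengths and strands came from GENCODE release 29, positions and start-site windows from RefSeq; the 4 motifs were chosen after the data were seen. On simulated data for this comparison (15309 genes tested), the test found 56.7% of genes set to 1.5-fold, 77.6% at 2-fold and 95.5% at 4-fold, and called 14 unchanged genes. Alternatives were DESeq2 1.42.0, limma-voom (limma 3.58.1), other scalings and filters, a robust fit, a replicate block, a 2-fold requirement and leaving out each library.

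The members and the 7 pathway lists were chosen with earlier results of these data known. The rule named the members, SNHG17, up to 3 genes per list with the smallest p past the threshold, the gene of each list with the highest mean CPM, and 2 like genes per member. It also covered other genes of these families in the table, which are not reported here. The neighbours of HRAS, ARAF and MAP2K1, the processed copies, RAP1A and ETV5 are named outside it, after their values were seen. The same holds for FNTB, RASGRP3, RASA2, RASA3, YWHAQ, YWHAE, YWHAG, YWHAH and YWHAZ.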

Additional observations from a re-analysis of the deposited data

How the results depend on the processing

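Over 15 alternative fits, MAP2K2 ran from 0.79 to 0.98 and BRAF from 0.45 to 0.71 on the log2 scale, past the threshold in each, and SNHG17 from -2.37 to -2.04. NRAS was lower in all 15 (-0.42 to -0.24, the range over fits that left out 1 library) and passed in 9. It missed with library totals only (-0.30, adjusted p = 0.0526 by edgeR) and with the replicate block (-0.33, adjusted p = 0.0535 by edgeR). MAP2K1 and MAPK3 passed in none; leaving out 1 library gave -0.26 to 0.0439 for MAP2K1, positive without si-NC replicate 1, and -0.0310 to 0.0914 for MAPK3, negative without si-SNHG17 replicate 2 (-0.0310) and without si-NC replicate 1 (-0.0074). The causes were not tested. The MAP2K2 to MAP2K1 log2 ratio differed by 0.75 to 1.25 with 1 library left out. A further 2-fold requirement kept 1465 genes (697 up, 768 down), fewer by its own construction. Library totals only gave 3407 higher and 2731 lower genes, against 3057 and 3055. Deviations from the group means correlated at 0.0605, -0.114 and -0.0910 between same-numbered libraries, each of which matched some other number better, so replicate numbers were not treated as pairing; the block gave 5579 genes, 5515 of them among the 6112 called without it. For 26 other genes refitted, 388 values stayed on their side of the threshold and 2, both of GAB2, lost it. HRAS to NRAS and ARAF to BRAF ratios, which were planned, could not be formed. The lengths used for RPKM were varied after the data were seen. Counts near 100 per library limit MAP2K1.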
